A study of Mus musculus with 65 samples.

Results

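Retinas taken on day 10 of microglial repopulation (REPOP10, 4 mice) were compared with retinas of mice on control diet (CD, 5 mice). The mice were chosen by their labels, and 9 of the 65 mice sequenced in 16 groups entered the comparison. All were adult C57BL/6J mice, and the labels name no transgene. The CD mice are labelled as vehicle and were fed the AIN-76A diet without drug. The REPOP10 mice received PLX5622, an inhibitor of the colony stimulating factor 1 receptor (CSF1R), mixed into the same diet for 14 days, and were then returned to the diet without drug for 10 days. Retinas depleted for 14 days with no return to control diet (DEP14, 4 mice) served as the depleted reference, and levels at days 7 (REPOP7, 6 mice) and 14 (REPOP14, 4 mice) of repopulation are given as description. CD mice are numbered 1 to 4, and the remaining one carries 2M in its title, which the sources used here do not explain. The comparison asks which microglial transcripts were still missing at partial return, and which genes stood above control. RNA came from homogenates of whole retina, so no cells were sorted.

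Microglia are the resident macrophages of the retina. They depend on signalling through CSF1R, whose ligands are CSF1 and IL34, and blocking the receptor kills most of them until the drug is withdrawn and surviving or returning cells divide and spread again. In the undisturbed retina they survey synapses through receptors such as CX3CR1 and P2RY12, are the main source of the complement component C1q, and digest what they engulf in lysosomes. In RNA of whole retina, fewer microglia and less RNA per microglia cannot be told apart.

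Depth was even, with 7468474 to 8530865 reads counted on genes in the CD mice, 7555734 to 8226055 in REPOP10 and 7367693 to 8577557 in DEP14. A count of 0 in a REPOP10 library allows up to 3 counts, or 0.365 to 0.397 in CPM (counts scaled to the size of the library), and these limits cover counting error only. Sample titles end in RE or re, which the sources do not explain. CD 1, CD 2M, REPOP10 1 and DEP14 1 carry re and stood apart from the RE mice, so the suffix was a term in every fit. A cluster of 7 mitochondrial pseudogenes on chromosome 1 (mm10 chr1:24611535-24616197) summed to 45.5 and 76.3 CPM in the re CD mice and to 465 to 857 CPM in the RE CD mice. REPOP10 mice 2 and 3 stood apart from mice 1 and 4 in a further set of genes described below.

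Of 23859 genes tested, 18 were lower (0.0754%) and 2 higher (0.00838%) in REPOP10 than in CD as differentially expressed genes (DEGs). A DEG had to pass edgeR's quasi-likelihood test at a false discovery rate (FDR) under 0.01 and differ by more than 1 on the log2 scale. Among the 18 lower DEGs were 8 microglia genes, namely Ctss, Selplg, C1qa, C1qc, Laptm5, Cx3cr1, Tmem119 and C1qb. The other 10 were 7 genes of the chromosome 1 cluster, mt-Ts1 and mt-Atp6 on the mitochondrial chromosome, and Gm26917. The 2 higher DEGs were Dct and Penk. At an FDR under 0.05 with no fold threshold, 40 genes were lower (0.168%) and 47 higher (0.197%), and 14 of the 40 belonged to the microglia lists. The counts moved with single mice. There were 0 DEGs without CD 2, CD 3, CD 4 or REPOP10 2, 3 without REPOP10 3 and 45 without REPOP10 1, and 0 also without the suffix as a term. DESeq2 gave 0 as well, where its independent filtering left the 8 microglia DEGs without an adjusted p, and 6 without that filtering. In the 9 fits that each left out 1 mouse, the 8 microglia DEGs kept their direction and an unadjusted p of at most 0.000271.

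**Figure D1:**
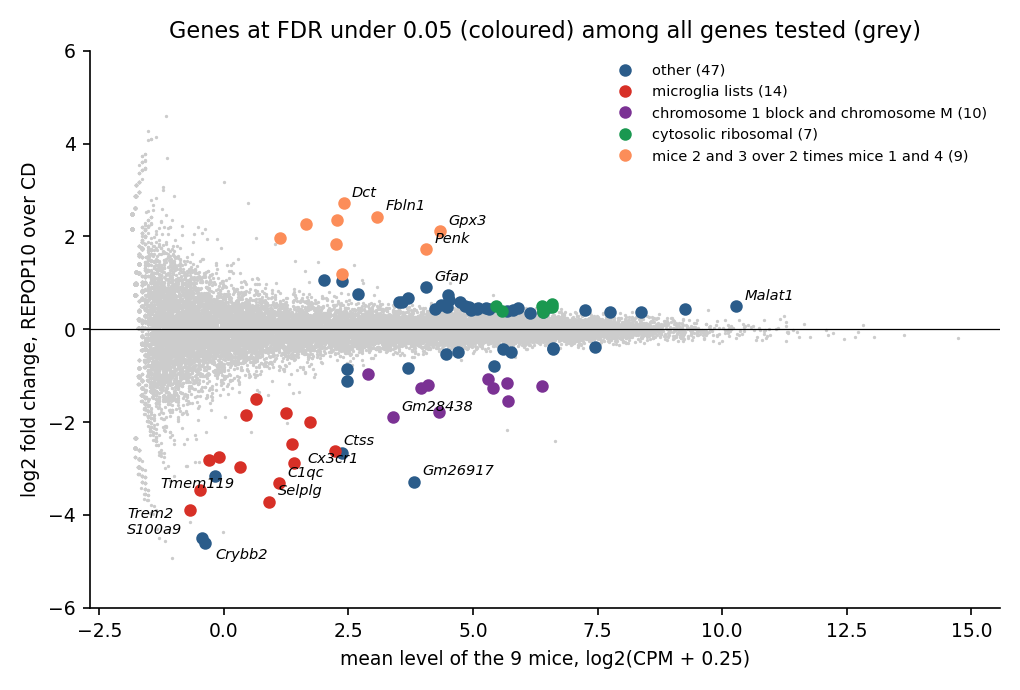
Log2 fold change of REPOP10 over CD (vertical axis) against the mean level of the 9 mice in log2(CPM + 0.25) (horizontal axis), with each gene tested in grey and the 87 genes at an FDR under 0.05 coloured by kind. The 14 microglia genes lie at the lower left, at low levels and log2 fold changes of -1.51 to -3.89, and most genes above control lie close to the line at 0.

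The C1q genes encode the recognition molecule of the classical complement pathway, which tags synapses and debris for uptake. C1qa, C1qc and C1qb lie next to each other on the minus strand of chromosome 4, at chr4:136895917-136898803, chr4:136889804-136893065 and chr4:136880129-136886187 of mm10. Counts of C1qa were 3, 4, 4 and 10 in REPOP10 mice 1 to 4, against 21, 36, 24, 33 and 32 in CD mice 1 to 4 and 2M. For C1qb they were 4, 6, 8 and 12 against 22, 27, 27, 36 and 12. For C1qc they were 3, 0, 1 and 6 against 16, 27, 19, 39 and 27. REPOP10 mouse 4 was highest for each of the 3 genes. Scaled to CPM, the groups did not overlap for any of them, although the 12 counts of C1qb in CD 2M equal those in REPOP10 mouse 4. Mean levels were 3.64 ± 0.702 CPM in CD and 0.658 ± 0.386 in REPOP10 for C1qa, 3.07 ± 0.973 and 0.940 ± 0.407 for C1qb, and 3.17 ± 0.986 and 0.313 ± 0.327 for C1qc (mean ± SD, n = 5 and 4). The log2 fold changes were -2.47 ± 0.32 for C1qa (FDR 5.83e-05), -1.80 ± 0.29 for C1qb (FDR 0.00171) and -3.31 ± 0.43 for C1qc (SE, FDR 6.52e-05, edgeR quasi-likelihood test).

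Against the CD mean, C1qb stood at 30.6 ± 13.3%, C1qa at 18.1 ± 10.6% and C1qc at 9.87 ± 10.3% (SD over 4 mice). The counting interval was 19.7 to 45.7% for C1qb and 4.6 to 18.7% for C1qc, from the pooled counts (exact binomial, 95%, counting error only), and these intervals do not overlap. The difference between the subunits was not tested across mice. The 3 genes summed to 9.88 ± 1.91 CPM in CD, 0.0312 ± 0.0624 in DEP14, 0.343 ± 0.305 in REPOP7, 1.91 ± 1.04 in REPOP10 and 8.58 ± 2.04 in REPOP14. Each REPOP10 mouse stood above each DEP14 and REPOP7 mouse, with 1.28 CPM in its lowest mouse against 0.776 in the highest REPOP7 mouse.

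**Figure D2:**
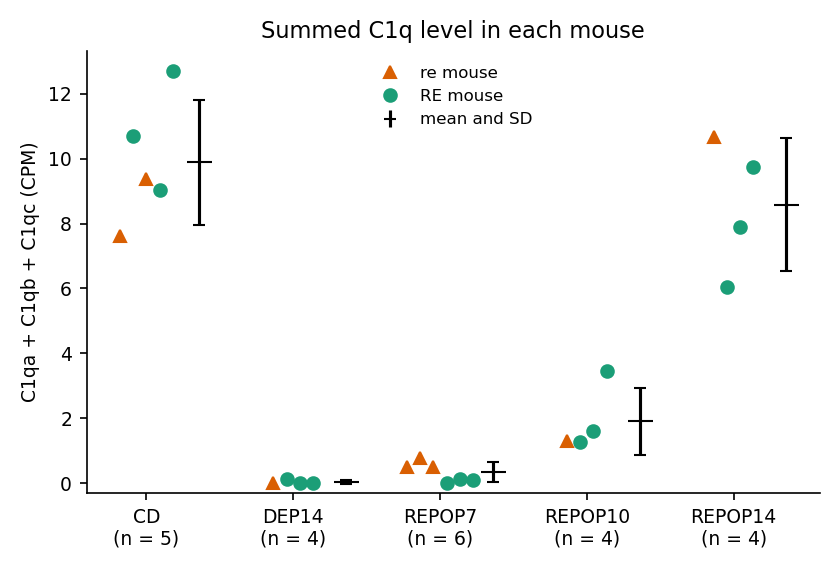
Summed level of C1qa, C1qb and C1qc in CPM (vertical axis) in each mouse of 5 groups, with triangles for re mice, circles for RE mice and bars for the mean and SD. The 4 REPOP10 mice sit between 1.28 and 3.45 CPM, above the DEP14 mice and below the lowest CD mouse at 7.61.

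Promoter sequence is shown for 3 of the microglia DEGs because PU.1, the transcription factor that specifies macrophages, binds purine-rich sites with the core GAGGAA. The 250 bases before the RefSeq start (GRCm38.p6) were available for 5 of the 8 microglia DEGs, and 4 of the 5 held GAGGAA on either strand, against 23.3% of all 32851 promoters. The longer GAGGAAGT, which contains the shorter motif, was found in 1 of the 5 and in 2.44% of all promoters. Capitals mark the match, which for C1qc lies on the opposite strand and so reads as the reverse complement of GAGGAAGT. The runs span chr3:95526536-95526785 (plus strand) for Ctss, chr4:136893066-136893164 (minus strand, the 99 bases farthest from the RefSeq start) for C1qc and chr4:136886201-136886450 (minus strand) for C1qb. For C1qc the RefSeq start lies inside the gene span given above, which came from GENCODE, so the run shown adjoins that span. Distances are counted from the RefSeq start. Matches began 164 bases before the start in Ctss, 195 in C1qc and 30 in C1qb. Laptm5 held GAGGAA 38 bases before its start, and these letters were not in the window of Cx3cr1. A match describes the sequence and was not tested for binding.
Ctss: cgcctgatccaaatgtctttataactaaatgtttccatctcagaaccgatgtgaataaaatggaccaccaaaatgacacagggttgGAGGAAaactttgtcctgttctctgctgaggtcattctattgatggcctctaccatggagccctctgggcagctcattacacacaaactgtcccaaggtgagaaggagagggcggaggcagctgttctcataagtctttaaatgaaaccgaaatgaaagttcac
C1qc: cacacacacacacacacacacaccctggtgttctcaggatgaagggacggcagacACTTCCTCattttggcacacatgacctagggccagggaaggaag
C1qb: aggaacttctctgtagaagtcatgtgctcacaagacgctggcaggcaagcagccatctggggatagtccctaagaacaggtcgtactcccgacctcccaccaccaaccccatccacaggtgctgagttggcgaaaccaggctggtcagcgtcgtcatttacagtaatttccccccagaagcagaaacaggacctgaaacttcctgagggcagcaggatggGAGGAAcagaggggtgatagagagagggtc

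Surface receptors were the microglial list with the deepest deficit next to C1q. Of its 15 tested genes (16 listed, with Cd200r1 below the filter), 6 were lower at an FDR under 0.05 and none higher, and the median log2 fold change was -1.86, against 0.00 over all genes. Every REPOP10 mouse lay below every CD mouse for 9 of the 15, against 0.591% of all genes. Selplg (chr5:113818536-113832644), the P-selectin ligand, had 0, 1, 1 and 4 counts in REPOP10 mice 1 to 4 and 31, 19, 20, 20 and 21 in CD. Cx3cr1 (chr9:119901616-120069879), the receptor for the neuronal chemokine fractalkine, had 4, 1, 2 and 10 counts against 27, 29, 15, 59 and 29. Tmem119 (chr5:113793729-113800516), a marker of resident microglia, had 2, 1, 1 and 2 counts against 14, 12, 14, 11 and 14. The groups did not overlap for any of the 3, and REPOP10 mouse 4 was highest or tied for highest. Selplg was at 6.67 ± 7.62% of the CD mean (log2 fold change -3.71 ± 0.45, FDR 2.44e-05), Cx3cr1 at 13.6 ± 12.6% (-2.88 ± 0.42, FDR 0.000316) and Tmem119 at 11.6 ± 4.49% (-2.96 ± 0.46, FDR 0.00089, edgeR quasi-likelihood test).

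P2ry12, the ADP receptor that steers microglial processes, had 4, 3, 4 and 4 counts against 8, 25, 9, 17 and 7 in CD. It stood at 29.3 ± 3.71% of CD and was lower at an FDR of 0.0445 (log2 fold change -1.86, edgeR quasi-likelihood test). With 3 or 4 counts per REPOP10 mouse, the small spread is below counting error and does not show that P2ry12 was even. Siglech, a sialic acid-binding receptor, had 1, 0, 0 and 4 counts against 4, 8, 10, 12 and 10 (FDR 0.0456). Cd33, of the same family, had 1, 1, 0 and 0 counts against 2, 15, 4, 6 and 5 (FDR 0.0459, edgeR quasi-likelihood test). Both lay below CD in each REPOP10 mouse once scaled to CPM. P2ry13, a second ADP receptor, had 0, 0, 1 and 2 counts against 5, 7, 5, 8 and 5 and missed the threshold (FDR 0.0539).

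Of the 15 lysosomal and phagosomal genes, 14 had a negative log2 fold change, and 8 were lower and 0 higher at an unadjusted p under 0.05 (6.05% and 6.17% of all genes). Ctss (chr3:95526786-95556403), the cathepsin S that is abundant in microglia, had 6, 7, 4 and 22 counts in REPOP10 and 40, 60, 82, 69 and 30 in CD, and was at 17.5 ± 14.4% of CD (log2 fold change -2.62 ± 0.28, FDR 3.58e-06). Laptm5 (chr4:130913125-130936141), a lysosomal membrane protein of leukocytes, had 9, 6, 4 and 17 counts against 40, 31, 37, 46 and 29, and was at 24.8 ± 15.3% (-2.0 ± 0.29, FDR 0.000274). Ly86, a partner of the toll-like receptor family, had 0, 0, 3 and 1 counts against 7, 8, 5, 12 and 5 (FDR 0.0467, edgeR quasi-likelihood test). Each of these lay below CD in all 4 mice, and mouse 4 was the highest for Ctss and Laptm5. Mpeg1, a macrophage pore-forming protein, had 9, 12, 16 and 30 counts against 28, 35, 30, 38 and 37 and did not pass (FDR 0.0637). Cd68, a macrophage lysosomal marker, had 9, 17, 12 and 21 counts against 16, 8, 11, 15 and 18, with overlapping groups and a log2 fold change of 0.15 (FDR 0.892). Over the whole list the median log2 fold change was -0.28, with 3 lower and 0 higher at an FDR under 0.05.

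TREM2 and its adaptor TYROBP (DAP12) form the receptor through which microglia sense lipids and apoptotic cells. Trem2 had 0, 0, 0 and 1 counts in REPOP10 against 5, 2, 5, 11 and 3 in CD, and was lower at an FDR of 0.0494 by edgeR's quasi-likelihood test. Tyrobp had 0, 1, 1 and 7 counts against 5, 8, 4, 9 and 4, so that mouse 4 reached the CD range while mice 1 to 3 lay below it (log2 fold change -1.48, FDR 0.286). In the 12 genes of this list, which also holds the Fc receptors, 1 was lower and 0 higher, with a median of -0.94. At these counts the pooled Trem2 level could lie anywhere from 0.118 to 29.5% of CD by counting error alone.

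The drug's target, Csf1r, was not called, although each REPOP10 mouse lay below each CD mouse once scaled to CPM. It had 99, 86, 105 and 81 counts in REPOP10 mice 1 to 4 against 150, 134, 106, 166 and 129 in CD. In CPM it averaged 11.7 ± 1.48 against 17.1 ± 2.45, or 68.6 ± 8.64% of CD, with a log2 fold change of -0.53 ± 0.13 (FDR 0.0558). It also stood at 8.85 CPM in DEP14, where Cx3cr1, Tmem119, C1qb and C1qc had 0 counts in all 4 mice. The ligand genes Csf1 and Il34 had log2 fold changes of -0.06 and -0.18 and were not called.

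Among transcription factors, Sall1, which maintains microglial identity, had 5, 3, 4 and 8 counts against 16, 15, 14, 14 and 15. Its groups did not overlap, and it was lower at an FDR of 0.0467 with REPOP10 at 33.9 ± 14.1% of CD (log2 fold change -1.51, edgeR quasi-likelihood test). Irf8, a myeloid regulator, had 2, 11, 13 and 15 counts against 18, 11, 20, 18 and 15, with mouse 1 far below and mice 2 to 4 at the lower edge of CD (FDR 0.369). Spi1, which encodes PU.1, had 0, 0, 0 and 2 counts against 2, 1, 3, 6 and 0, too few for a difference to be detectable. In the list of 8 factors, 1 was lower and 0 higher. The 15 leukocyte integrin and cytoskeletal genes had a median log2 fold change of -1.06 with none called in either direction. In that list Itgam, the integrin CD11b, had 0, 1, 0 and 3 counts against 5, 4, 6, 8 and 4 (FDR 0.124), and Ptprc, the leukocyte phosphatase CD45, had 3, 0, 0 and 2 against 3, 10, 12, 9 and 8 (FDR 0.0512).

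Taking the 7 microglial lists as one without Csf1 and Il34, 62 of 69 tested genes (70 listed) had a negative log2 fold change, against 49.3% of all genes tested. Of the 69, 39 were lower and 0 higher at an unadjusted p under 0.05, against 6.05% lower among all genes, and their median log2 fold change was -1.03. Trem2 and Spi1, for example, passed the filter only through CD, where they were higher. This favoured a negative sign, so the shares are set in part by the filter, and the same limit can hold within single lists. For 22 of the 69 each REPOP10 mouse lay below each CD mouse, and for 0 each lay above (0.687% of all genes). The 14 called genes were separated in this way in all 4 mice. Within the RE mice and within the re mice, the 14 had median log2 ratios of -1.92 and -1.88 (pseudocount 0.25 CPM, 3 REPOP10 over 3 CD mice and 1 over 2). These 14 were called from the same mice, so their separation and ratios follow in part from that choice.

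**Figure D3:**
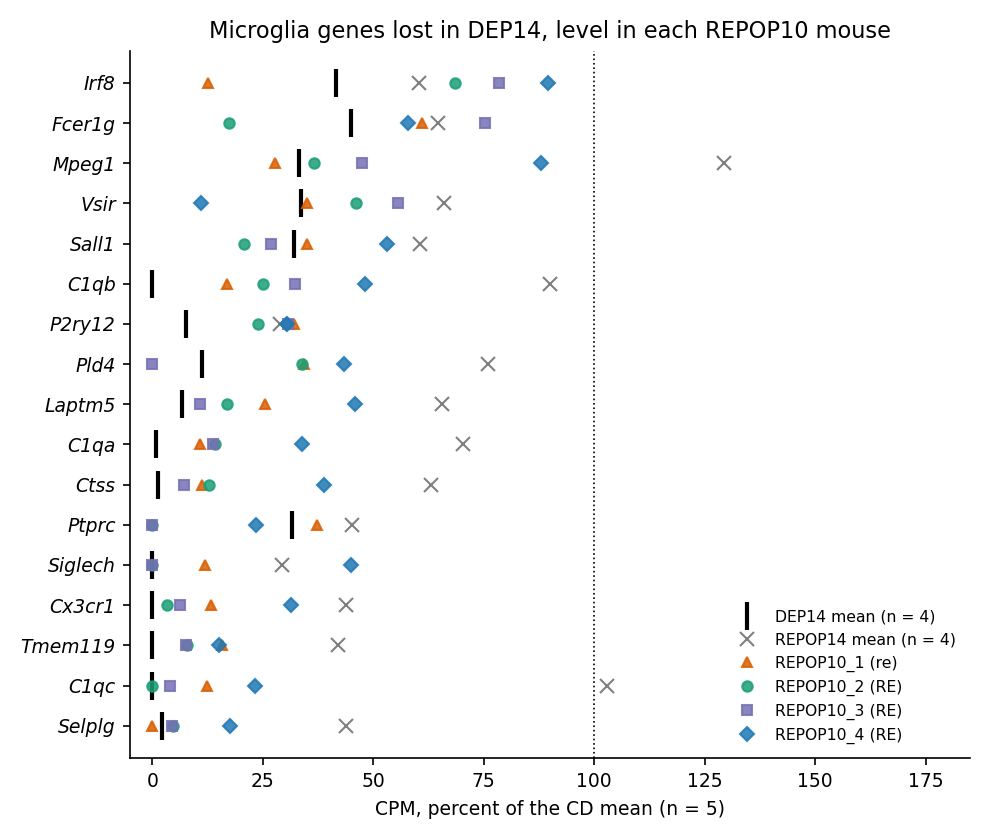
Level of 17 microglia genes in each REPOP10 mouse as percent of the CD mean in CPM (horizontal axis), with bars for the DEP14 mean, crosses for the REPOP14 mean and the dotted line at the CD level. The genes have at least 1 CPM in CD and a DEP14 level under 50% of CD. REPOP10 mouse 4 (diamonds) lies to the right of the other 3 mice for most of them.

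How much of the loss had returned was described for the 17 microglia genes with at least 1 CPM in CD and under 50% of it in DEP14, limits that were set after the values were seen. The median gene stood at 6.79% of CD in DEP14, 6.51% in REPOP7, 24.8% in REPOP10 and 63.1% in REPOP14. As the share of the gap between DEP14 and CD that was closed at day 10, the median was 14.3%. Irf8 (35.6%), C1qb (30.6%) and Mpeg1 (25.2%) had closed the most. Ptprc (-24.1%), Sall1 (2.74%), Selplg (4.67%), Vsir (4.83%) and C1qc (9.87%) had closed under 10%, and 9 genes lay between 10 and 25%. By day 14 C1qc averaged 103% and C1qb 89.9% of CD, whereas P2ry12 was at 28.9%, Tmem119 at 42.0% and Cx3cr1 and Selplg at 43.8%. These shares carry the spread of 4 mice and few counts, and no order among neighbouring genes was tested.

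The direct test against the depleted retina found little that passed. Of 24470 genes, 0 were DEGs in either direction by edgeR or by DESeq2, and 725 differed at an unadjusted p under 0.05 (2.96%). At an FDR under 0.05, 1 gene was higher (0.00409%) and 2 were lower (0.00817%). The higher one was C1qb, with 4, 6, 8 and 12 counts in REPOP10 and none in any DEP14 mouse (FDR 0.0338). Set against the limit of 3 counts per library in DEP14, its REPOP10 mean was at least 2.5-fold higher, but no gene passed as higher once any 1 mouse was left out. Cx3cr1 was also without a count in DEP14, and its REPOP10 mean was 1.42 times that limit. This mean rested mostly on mouse 4, with mice 2 and 3 under 3 counts, and Cx3cr1 did not pass (FDR 0.987). Ctss had 0, 2, 0 and 1 counts in DEP14 (FDR 0.176), and C1qa had 0, 1, 0 and 0 (FDR 0.535). Of 65 microglia genes tested here, 51 had a positive log2 fold change (48.9% over all genes), 12 were higher (1.48% of all genes) and 0 lower (1.49%) at an unadjusted p under 0.05, and the median log2 fold change was 0.54. For 7 of the 65 each REPOP10 mouse lay above each DEP14 mouse (0.499% of all genes), and for 0 each lay below (0.625%). Genes without a count in DEP14, such as C1qb and Cx3cr1, passed the filter only through REPOP10. Their positive sign was fixed by that, so these shares of the 65 are set in part by the filter. The 2 lower genes were lens crystallins, Cryaa with 188, 85, 0 and 0 counts in DEP14 mice 1 to 4 and at most 1 in REPOP10, and Crybb2 with 107, 139, 0 and 2 (FDR 0.0338 each). DEP14 mice 1 and 2 carried the crystallin list at 92.8 and 73.4 CPM, against 16.6 to 28.7 CPM in REPOP10.

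No gene was called in the cell-cycle list or in the 4 immune lists described here. The cell-cycle list had 0 of 19 genes called in either direction and a median log2 fold change of 0.07. In it, Mki67, the proliferation antigen Ki-67, had 1, 1, 0 and 3 counts against 0, 0, 0, 1 and 1 (FDR 0.651), Top2a had 1, 3, 2 and 2 against 0, 1, 1, 0 and 1, and Rrm2 had 1, 4, 0 and 0 against 0 in each CD mouse. These sit at or under the limit a count of 0 allows in most mice, so a difference was not detectable at this depth. Disease-associated microglia genes (10 tested), MHC presentation (10), interferon-stimulated genes (14) and cytokines and chemokines (9) had 0 genes called in either direction and medians of 0.07, -0.10, -0.03 and -0.08. Many of the genes in these 4 lists are also expressed by other retinal cells.

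Markers of other macrophages were not called as higher. Of 6 tested perivascular macrophage genes (10 listed) 0 were called, and the list summed to 21.6 to 25.6 CPM in REPOP10 and 16.9 to 23.6 in CD. Its defining marker Mrc1, the mannose receptor, had 0, 1, 0 and 0 counts against 0, 1, 3, 2 and 0. Ms4a7, a macrophage gene, had 2, 6, 2 and 6 counts against 0, 1, 0, 3 and 1 (FDR 0.307). In the monocyte and neutrophil list, 1 of 5 tested genes was higher (Vcan, a proteoglycan also made by other cells, described with mice 2 and 3) and 1 lower. The lower one, S100a9, a neutrophil calprotectin subunit, had 0, 0, 1 and 0 counts against 0, 3, 26, 5 and 0, so its difference came mostly from CD mouse 3 (FDR 0.0494, edgeR quasi-likelihood test).

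Of the genes above control, Gfap had the lowest FDR. It encodes the intermediate filament of reactive Mueller glia and astrocytes (chr11:102887336-102900912), and had 99, 215, 252 and 151 counts in REPOP10 mice 1 to 4 against 93, 83, 93, 101 and 82 in CD. In CPM each REPOP10 mouse lay above each CD mouse, with mouse 1 only just above. The mean was 22.6 ± 8.40 CPM against 11.3 ± 0.942 in CD, a log2 fold change of 0.91 ± 0.16 (FDR 0.0045, edgeR quasi-likelihood test), which is under the DEG fold threshold. The DEP14 mice stood at 19.9 to 23.3 CPM, within the range of REPOP10. Serpina3n, an acute-phase serpin of reactive astrocytes, had 31, 69, 86 and 39 counts against 24, 22, 24, 43 and 14, with mice 2 and 3 above CD and the others overlapping it (log2 fold change 1.05, FDR 0.0456). C4b, a complement gene of reactive glia, had 48, 105, 91 and 49 against 50, 20, 24, 50 and 41 (FDR 0.0637). In the list of 18 Mueller glia and astrocyte genes, 2 were higher and 0 lower, 15 had a positive log2 fold change (50.7% of all genes) and the median was 0.17. Glul, the glutamine synthetase of Mueller glia, had a log2 fold change of -0.23 (FDR 0.138).

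A set of 9 genes above control owed its mean to REPOP10 mice 2 and 3, in each of which it was over 2 times the level of mice 1 and 4, and was grouped after its values were seen. Dct (chr14:118012790-118052244), the dopachrome tautomerase of pigment cells, had 6, 87, 203 and 18 counts in REPOP10 against 6, 11, 9, 17 and 5 in CD (log2 fold change 2.72 ± 0.48, FDR 0.00483). Penk (chr4:4133531-4138819), the enkephalin precursor, had 38, 352, 437 and 78 against 34, 54, 70, 85 and 34 (1.73 ± 0.32, FDR 0.00837, edgeR quasi-likelihood test). Mice 1 and 4 lay in or at the edge of the CD range for both. The same was seen for the extracellular matrix genes Fbln1 (12, 178, 288 and 17 counts), Optc (9, 105, 149 and 8) and Ltbp2 (6, 63, 90 and 9). CD counts reached 45 for Fbln1, 20 for Optc and 11 for Ltbp2. The antioxidant enzyme Gpx3 had 35, 381, 722 and 30 counts in REPOP10 and 36 to 89 in CD. Slc6a13, a GABA and taurine transporter, had 8, 40, 54 and 6, the gap junction gene Gja1 19, 85, 126 and 17, and Vcan 27, 87, 88 and 33. FDRs of these 7 genes were 0.0214 to 0.0456. Without mice 2 and 3, 4 of the 9 turned to a negative log2 fold change (Fbln1, Optc, Ltbp2 and Gpx3). As the grouping rests on mice 2 and 3, a fall without them was built in.

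Several of these genes are made by the pigment epithelium and ciliary body, tissues that border the retina. The list for them, chosen with earlier results known, had 1 of 10 genes higher (Dct) and 0 lower, 7 higher at an unadjusted p under 0.05 (6.17% of all genes) and a median log2 fold change of 0.89. It summed to 32.3, 43.4, 58.5 and 14.7 CPM in REPOP10 mice 1 to 4, and to 6.32 to 24.5 in CD. Above the CD range were also REPOP7 mice 2 and 5 at 36.6 and 35.0 CPM, and DEP14 mouse 2 at 46.9. That depleted mouse also had 91 counts of Dct, where the other DEP14 mice had 6 to 10, and 40.8 CPM of Penk, where the others had 4.11 to 10.9. Whether tissue carried over in dissection had a part in these values was not tested. The pigment gene Tyrp1 followed the same mice with 7, 28, 56 and 7 counts against 6, 5, 6, 9 and 4 (FDR 0.0589).

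**Figure D4:**
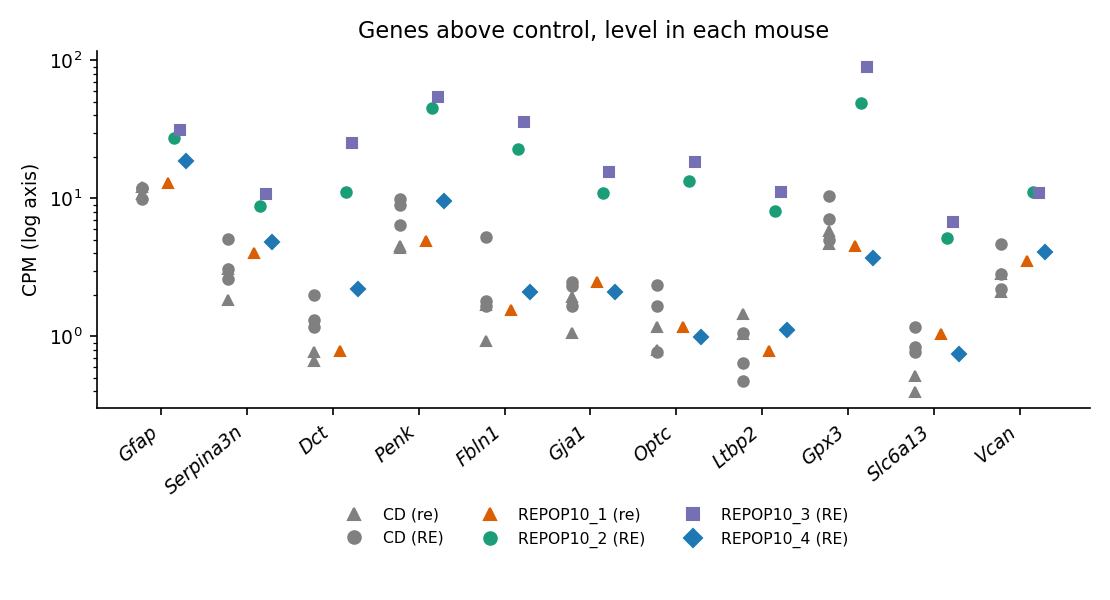
CPM on a log axis (vertical) of 11 genes above control (horizontal axis) in each CD mouse in grey and each REPOP10 mouse in colour, with triangles for re mice. Mice 2 and 3 lie above the CD mice for each gene shown, while mice 1 and 4 mostly lie within or just above the CD range. Exceptions include Gfap in mouse 4 at 18.6 CPM, and Gpx3 in mouse 4, which lies below the CD mice.

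Most of the 47 higher genes exceeded CD in mice 2 and 3. Of the 47 higher genes, 45 exceeded every CD mouse in mouse 2, 45 in mouse 3, 35 in mouse 4 and 6 in mouse 1. Sp140, an interferon-linked nuclear body gene, had 14, 48, 45 and 71 counts against 18, 18, 23, 25 and 11, with mouse 1 in the CD range (log2 fold change 1.05, FDR 0.0456). Cytosolic ribosomal protein genes made up 7 of the 47, and 77 of all 23859 genes tested. Rps24 stood at 61.9, 142, 152 and 132 CPM against 51.7, 81.0, 101, 73.0 and 66.7, again with mouse 1 within CD (log2 fold change 0.55, FDR 0.0214). Over all 77 tested ribosomal protein genes, a list gathered by symbol after the values were seen, 63 had a positive log2 fold change, against 50.7% of all genes, and 32 were higher at an unadjusted p under 0.05, against 6.17%, with a median of 0.17. The list summed to 5187 to 6077 CPM in the RE mice of REPOP10 and 4259 to 5096 in those of CD. The 33 RE mice of other groups spanned 4214 to 5951 CPM and so overlapped REPOP10.

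Ratios of REPOP10 to CD were also taken within each title suffix. Within RE and within re, the median log2 ratio was 2.61 and 0.21 for the 9 genes of mice 2 and 3, and 0.65 and 0.07 for the 7 ribosomal genes. The 9 were grouped by RE mice 2 and 3 against mice 1 and 4, and mouse 1 is the only re mouse of REPOP10. Their split between suffixes therefore follows from that grouping. A term for the interaction of suffix and group, added after the data were seen, was below an FDR of 0.05 for 0 of the 87 called genes and 4 of all genes. At an unadjusted p under 0.05 it was met by 23 of the 47 higher genes, 15 of the 26 lower genes outside the microglia lists and 1 of the 14 microglia genes, against 1389 of all 23859 genes. As the re arm held 1 REPOP10 mouse, a difference between suffixes is not shown.

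**Figure D5:**
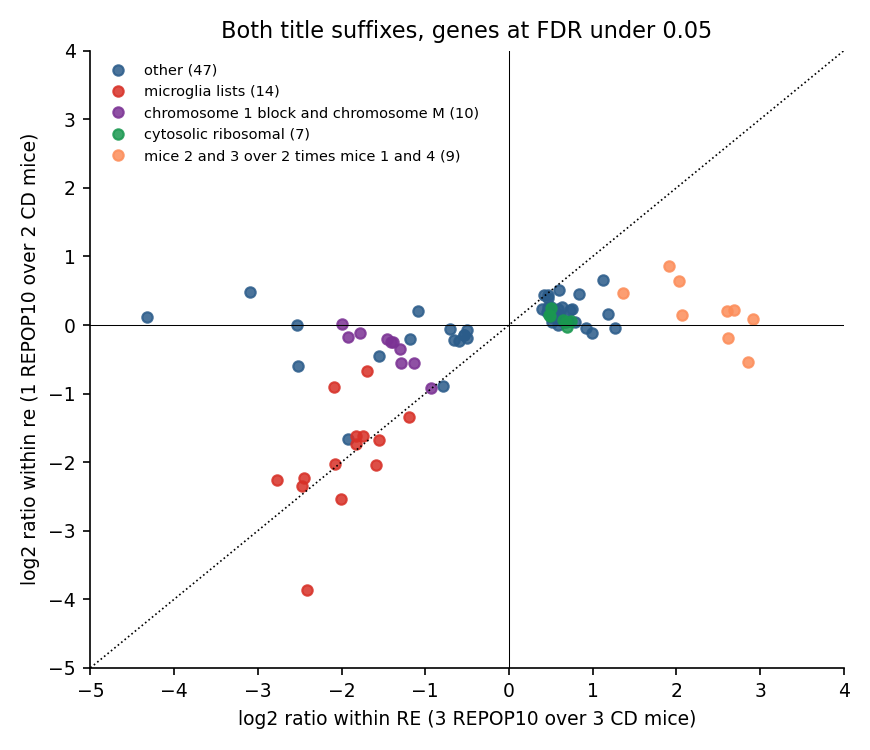
Log2 ratio of REPOP10 over CD within the re mice (vertical axis, 1 over 2 mice) against that within the RE mice (horizontal axis, 3 over 3 mice) for the 87 genes at an FDR under 0.05, with a pseudocount of 0.25 CPM and the dotted line marking equal ratios. The 14 microglia genes lie below 0 on both axes, while within re the green genes lie at -0.03 to 0.25, the purple genes at -0.91 to 0.01 and the orange genes at -0.54 to 0.87. All 87 were called from these same mice.

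Lower genes outside the microglia lists numbered 26, and 1 of them (Cyp26b1, a retinoic acid hydroxylase) lay below CD in all 4 mice. The 7 genes of the chromosome 1 cluster, copies of mitochondrial sequence, and 3 genes of the mitochondrial chromosome were among them. The cluster summed to 211, 248 and 199 CPM in the RE mice of REPOP10 against 465, 857 and 522 in those of CD, and to 50.9 CPM in REPOP10 mouse 1 against 45.5 and 76.3 in the re CD mice. Its most significant gene, Gm28437, had 57, 256, 276 and 232 counts against 55, 641, 714, 749 and 80 (log2 fold change -1.25, FDR 3.58e-06, edgeR quasi-likelihood test). Among the 33 RE mice of 11 other groups, 11 had a cluster sum at or above the lowest RE CD mouse, 11 at or below the highest REPOP10 mouse and 11 between, so low sums were not particular to REPOP10. Reads of these genes can be shared with the near-identical mitochondrial copies, so their levels are uncertain. The mitochondrial chromosome as a whole was at 33389 to 51342 CPM in REPOP10 and 30279 to 49937 in CD. When all 16 groups were fitted together and the cluster sum was a covariate, 7 microglia DEGs of the 8 were below an FDR of 0.05 and C1qb was not (FDR 0.138).

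Of the other lower genes, Gm26917, Gm1821 and Crybb2 owed their difference mostly to 1 or 2 CD mice. For Aqp1, Slc6a11, Sidt2, Llgl1, Mgrn1, Celsr3, Gm11973, Gm17638 and Gm10532, REPOP10 mice 2, 3 and 4 each lay below every CD mouse. Mouse 1 did not, and the log2 fold changes of these genes ran from -0.37 to -1.11. Gm26917, a noncoding RNA, had 40, 11, 15 and 10 counts in REPOP10 and 37, 481, 29, 372 and 36 in CD, so that CD 2 and CD 4 set its difference (log2 fold change -3.28, FDR 0.00431). Gm1821 had 14, 6, 14 and 9 against 16, 238, 30, 38 and 3 (FDR 0.0399). Crybb2, a lens crystallin, had 0, 0, 1 and 0 against 2, 5, 1, 30 and 0, and 8 tested crystallins had a median log2 fold change of -1.91 with CD mouse 4 at the highest sum of 41.6 CPM. Csf3r, the granulocyte colony stimulating factor receptor, had 2, 0, 1 and 0 counts against 14, 13, 6, 2 and 7, with the groups touching at 2 counts (FDR 0.0456, edgeR quasi-likelihood test).

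Neuronal and vascular markers stayed uncalled in the main fit. The rod (15 genes), cone (10), bipolar (10), amacrine and horizontal (13) and ganglion cell (10) lists, and the immediate early (12), endothelium and pericyte (12), oligodendrocyte (7), red blood cell (5) and sex-linked (5) lists, had 0 genes at an FDR under 0.05 in either direction. Their median log2 fold changes ran from -0.11 for the immediate early genes to 0.13 for the ganglion cell genes. Rod genes summed to 57798 to 72884 CPM in REPOP10 and 64955 to 75167 in CD. Ganglion cell genes summed to 1346, 1532, 1654 and 1587 CPM in REPOP10 mice 1 to 4 and to 1267 to 1463 in CD. In RE mice only, 1 rod and 1 ganglion cell gene were higher at an FDR under 0.05. Lower there were 1 rod gene, 1 bipolar gene and 1 gene of the amacrine and horizontal list.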

How the data were processed

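Total RNA of whole retina was sequenced from 65 mice as 50 bp single-end reads. The deposited counts are reads per gene that the authors obtained with HTSeq after HISAT2 alignment to mm10, and the deposited FPKM values came from StringTie. Versions were not given in the sources used here. Counts of 9 mice were fitted in edgeR 4.0.16 (R 4.3.3) with TMM scaling and terms for title suffix and group, after removing genes that reached 1 count in less than a share of 0.5 of the mice in both groups. DEP14 was compared with REPOP10 in the same way. P-values were adjusted by Benjamini-Hochberg, and the DEG thresholds were an FDR of 0.01 and a change of 1 on the log2 scale. CPM is the deposited count scaled to TMM library sizes. Gene lists were described by counts and medians and not tested. The fit was checked on simulated counts. FPKM served as an alternative scale.

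Members, lists and limits were chosen with earlier results of these data known. Named genes are the DEGs, up to 10 further higher and 5 lower genes by fold change, up to 4 called members of each list, and 15 microglia and glia genes. Other genes (such as Siglech, Cd33, Ptprc, P2ry13, Mpeg1, Cd68, Irf8, Spi1, Top2a, Rrm2, Ms4a7, C4b, Glul, Tyrp1, Cyp26b1 and Rps24) were named after their values were seen. Gene names and positions came from GENCODE M21, which named 50462 of 50686 identifiers, and promoters from RefSeq (GRCm38.p6). The RefSeq table held 5 of the 8 microglia DEGs.

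Each count of calls was also taken with DESeq2 1.42.0, the likelihood ratio test of edgeR, scaling by RLE, other filters, no suffix term, a replicate block, all 16 groups in one fit, RE mice only, leaving out each mouse, and others added after the data were seen. To check whether replicate numbers pair mice, deviations from group means were correlated over 12346 genes. Same-numbered REPOP10 and CD mice correlated at 0.234 to 0.718, but the suffix goes along with the number, and within RE mice the values were -0.187 to -0.0456, so the numbers were not taken to pair mice. No libraries agreed within sampling noise (chi-square per degree of freedom 2.37 to 24.6). Precision is limited by depth at the few counts most microglia genes have.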

Additional observations from a re-analysis of the deposited data

Results flagged for a closer look

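In 86 groups of 4 or 5 mice checked (43 named genes in CD and in REPOP10), 13 had 1 mouse far from the others by Dixon's test, where chance gives about 1 in 20. REPOP10 mouse 4 stood apart upward for C1qa (1.23 CPM against 0.389 to 0.513 in mice 1 to 3) and Tyrobp (0.862 against 0 to 0.128). REPOP10 mouse 1, the re mouse, was high for Gm26917 (5.19 CPM against 1.23 to 1.86) and low for the pseudogene Gm28661 (9.61 against 38.6 to 42.1). CD mouse 4 stood apart for Crybb2 (3.52 CPM against 0 to 0.594), Fbln1 (5.28 against 0.924 to 1.80) and Vcan (4.70 against 2.11 to 2.85). CD mouse 2 was high for Gm1821 (28.3 CPM against 0.396 to 4.46), and CD mouse 3 for S100a9 (3.35 against 0 to 0.587). The remaining 4 rest on a single read, with 0.124 CPM of Crybb2 and of S100a9 in REPOP10 mouse 3, 0.128 CPM of Mrc1 in mouse 2 and 0.123 CPM of Trem2 in mouse 4, and 0 in the others.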

How the results depend on the processing

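The number of called genes depended on the fit. Against CD, the 20 DEGs became 34 by the likelihood ratio test, 65 with no gene filter, 11 with filterByExpr, 9 with all 16 groups in one fit, and 0 by DESeq2 or with group as the only term. Of the choices added after the data were seen, the robust fit gave 7 DEGs, DESeq2 without independent filtering 6, all 16 groups with the pseudogene level as a covariate 5, and leaving out REPOP10 mice 2 and 3 together 0. The 47 higher and 40 lower genes at an FDR under 0.05 became 97 and 72 by the likelihood ratio test, 344 and 283 with no filter, 1 and 14 with filterByExpr, 0 and 6 with group as the only term, 2 and 10 with all 16 groups, 246 and 200 in RE mice only, 6 and 12 by DESeq2 without independent filtering, 0 and 7 with all 16 groups and the pseudogene level, and 0 and 0 without REPOP10 mice 2 and 3. DESeq2 left 20 lower genes. Leaving out 1 mouse gave 0 to 45 DEGs, 0 to 421 higher and 0 to 396 lower genes. The prior degrees of freedom of the fit fell from 23.05 to between 5.46 and 6.58 without CD 2, CD 3 or CD 4. The replicate block gave 23 DEGs with 59 higher and 44 lower genes.

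Against DEP14, 0 DEGs became 5 by the likelihood ratio test, 16 with no filter, 4 with the replicate block, 2 with all 16 groups, and 1 with the robust fit or without REPOP10 mice 2 and 3. The 1 higher and 2 lower genes became 4 and 4 by the likelihood ratio test, 20 and 19 with no filter, 0 and 5 with the replicate block, 2 higher with all 16 groups, 2 and 0 without mice 2 and 3, and 0 and 0 by DESeq2 with or without independent filtering, with filterByExpr, with group as the only term and in RE mice only. Lower genes were 0 with the robust fit and with all 16 groups and the pseudogene level. Leaving out 1 mouse gave 0 to 2 DEGs, 0 higher and 0 to 4 lower genes.

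Direction was kept by the 12 named microglia genes at an FDR under 0.05 in each alternative that gave a value. The genes whose direction turned were Fbln1 (-0.23), Gpx3 (-0.65), Ltbp2 (-0.00178) and Optc (-0.30) without REPOP10 mice 2 and 3, and the pseudogenes Gm10925 (0.0898) and Gm29216 (0.033), which enter the covariate, with all 16 groups and the pseudogene level in the fit. The percent of CD of the 8 microglia DEGs moved by less than the spread between mice with FPKM or in RE mice only. Most microglia genes had few counts per library, so small differences between them were not detectable at this depth.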
